A study of Mus musculus with 12 samples.

Results

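The Trim genes encode the tripartite motif proteins, and the members described here are the rows of the deposited read-count table whose symbol starts with Trim followed by a digit. The rule found 69 of the 55137 entries in the table. The RNA came from RAW 264.7, a line of mouse macrophages, and was sequenced as 12 libraries from 4 groups of 3. PSTO+LPS cells received 20 uM of an agent that the labels call PSTO and then 500 ng/mL LPS, LPS cells received vehicle and then 500 ng/mL LPS, PSTO cells received 20 uM PSTO alone, and control cells received vehicle alone. The first addition preceded LPS by 30 minutes, and the harvest time is given as 6 h. LPS comes from the outer membrane of bacteria and is detected by TLR4 on macrophages. What PSTO stands for is not given in the labels, and the title names garlic extract. Replicates are numbered, but nothing says that they were separate cultures of the line, so p-values measure the spread between these libraries, which may be technical.

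A tripartite motif protein carries a RING domain, which in most members passes ubiquitin to other proteins, then B-box and coiled-coil domains, and a variable end that binds the target. In macrophages several members tune the pathways from Toll-like receptors and from cytosolic sensors of viral nucleic acid, either by marking a signalling protein for destruction or by building ubiquitin chains that activate it. Many of these genes are themselves induced by interferon, which LPS-treated macrophages release. The factors that carry the interferon signal bind a DNA element called ISRE, made of GAAA repeats.

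Stretches of 6 promoters are shown for the members on which the results turn, with that of Trim5 for its likeness to Trim12c. They come from the RefSeq promoter table of build GRCm38.p6, which is not the build of the counts (mm39), and 53 of the 69 symbols matched it. Each runs 5′ to 3′ on the strand of the gene, and capitals mark an ISRE-type match, GAAANNGAAA or its reverse complement TTTCNNTTTC. The first 3 belong to genes of the chromosome 7 cluster that rose with LPS, and the fourth to a riser outside it.
Trim30a: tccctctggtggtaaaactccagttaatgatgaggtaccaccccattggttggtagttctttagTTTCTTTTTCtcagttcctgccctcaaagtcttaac
Trim30d: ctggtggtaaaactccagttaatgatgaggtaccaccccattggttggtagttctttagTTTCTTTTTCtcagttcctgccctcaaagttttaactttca
Trim12c: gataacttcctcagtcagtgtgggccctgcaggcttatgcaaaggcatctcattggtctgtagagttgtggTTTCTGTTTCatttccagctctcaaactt
Trim26: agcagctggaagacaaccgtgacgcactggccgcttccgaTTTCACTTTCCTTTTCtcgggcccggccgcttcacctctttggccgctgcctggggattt
The next has a match and almost no reads, and the last 2 have no match within 250 bases before to 50 bases after the start; the first of these rose with LPS and the second did not.
Trim5: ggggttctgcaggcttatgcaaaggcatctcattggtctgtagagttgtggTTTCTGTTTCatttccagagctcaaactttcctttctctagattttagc
Trim25: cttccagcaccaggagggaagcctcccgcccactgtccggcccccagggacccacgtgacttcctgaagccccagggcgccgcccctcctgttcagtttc
Trim28: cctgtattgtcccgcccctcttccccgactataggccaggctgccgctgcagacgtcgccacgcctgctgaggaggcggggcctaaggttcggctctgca
They lie at chr7:104465194-104465293, minus strand (Trim30a), chr7:104507850-104507949, minus strand (Trim30d), chr7:104353350-104353449, minus strand (Trim12c), chr17:36836946-36837045, plus strand (Trim26), chr7:104288107-104288206, minus strand (Trim5), chr11:88999303-88999402, plus strand (Trim25), and chr7:13024052-13024151, plus strand (Trim28). The Trim26 stretch ends 101 bases before the start and the others end at the base before it. In Trim26 the capitals cover 2 overlapping matches. The Trim30a and Trim30d stretches share an identical run of 89 bases that holds the match, and Trim12c and Trim5 share 63.

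Of the 69 members, 38 had enough reads to be tested, 20 had some reads but were too low to judge, and 11 had none in any library. Tested here means passing edgeR's filter, which asks for about 0.446 counts per 1000000 reads of a library in at least 3 libraries. The filter uses unscaled library totals, whereas levels below are counts per 1000000 scaled reads (CPM). Library totals ran from 15817880 to 28625784 reads. Of the 38 tested members, 31 reached that level in all 3 libraries of every group, 2 in 3 groups, and 4 in 2 groups, namely Trim30b, Trim30c and Trim30d, which reached it only with LPS, and Trim62, which reached it only without LPS. Trim2 reached it in control alone. The 5 members last named passed only through the groups where they are high.

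The 20 members too low to judge held at most 15 reads in any library. Trim43c had 85 reads over all 12 libraries, Trim17 had 62, Trim15 had 44, Trim72 had 41, Trim7 had 38, Trim69 had 24 and Trim5 had 21. Trim54 had 17, Trim80 had 14, Trim43a had 12, Trim10 and Trim67 had 7 each, and Trim12a had 6. Trim29, Trim43b and Trim50 had 4 reads each, Trim38 and Trim9 had 3 each, Trim75 had 2 and Trim40 had 1. Trim38, known as a brake on Toll-like receptor signalling, is therefore near the limit of detection here with or without LPS. No read was counted for Trim6, Trim30e-ps1, Trim31, Trim42, Trim52, Trim55, Trim58, Trim60, Trim61, Trim63 or Trim71. A count of 0 allows up to 3 reads per library, for counting error only. The muscle RING finger genes Trim54, Trim55 and Trim63 are thus all untested.

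The cells carried macrophage markers. The 9 table entries matched to markers of this cell type summed to 13448 to 13487 CPM in PSTO+LPS libraries, 9131 to 9235 CPM in LPS, 12385 to 13206 CPM in PSTO and 10834 to 11574 CPM in control, and none was at 0. Markers of T cells, fibroblasts and epithelium each summed to at most 0.596 CPM in any library, with 2 to 4 of each list's genes at 0. The 4 B cell markers summed to 4.9 to 6.42 CPM in PSTO+LPS and 7.54 to 12 CPM in LPS, against at most 0.339 CPM in PSTO and 0.0937 CPM in control, with 1 of the 4 at 0 in each group with LPS and 2 in each group without. The 4 neutrophil markers summed to 8.41 to 10.9 CPM in PSTO+LPS, 2.3 to 3.41 CPM in LPS, 1.24 to 1.72 CPM in PSTO and 1.29 to 1.68 CPM in control, with 0, 3, 2 and 3 of them at 0 in these groups. The part of these marker genes in the results was not tested. In RNA from a whole culture, fewer cells of a kind and less RNA per cell cannot be told apart.

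LPS changed most of the tested members, and most of all tested genes as well. Between LPS and control, 32 of 38 tested members passed the test at an adjusted p under 0.05, 15 higher and 17 lower, where 62.7% of all 14505 tested genes passed, 32.6% higher and 30.1% lower. Between PSTO+LPS and PSTO, 34 of 38 passed, 14 higher and 20 lower, where 59.6% of all genes passed, 29.8% higher and 29.8% lower. The members' count of changes of at least 2-fold was 13 higher and 6 lower in each of these comparisons. The background for such rises was 13.8% of all genes for LPS against control and 12.3% for PSTO+LPS against PSTO, and for such falls 12.7% and 11.3% in the same order. The median log2 fold change was -0.13 for the members and 0.01 for all genes with LPS against control, and -0.25 against -0.02 with PSTO+LPS against PSTO. These comparisons use different libraries, and 13 members rose and 16 fell in both. The 13 are 86.7% of the rises with LPS alone and 92.9% of those with PSTO present, and the 16 are 94.1% and 80% of the falls. Over all tested genes, the shared calls were 78.6% and 86.2% of the rises and 78.1% and 78.7% of the falls.

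Scaling by total reads alone moved the median of all genes by -0.53 (log2) for LPS against control and by -0.49 for PSTO+LPS against PSTO, and upper-quartile scaling moved it by -0.15 and -0.11. With total reads the members split into 13 higher and 22 lower for LPS against control and 13 higher and 23 lower for PSTO+LPS against PSTO, and with upper-quartile scaling into 14 and 20, and 14 and 21. Of all genes called, 21.58% and 20.61% were higher with total reads in these comparisons, in the same order. These shares were 41.73% and 41.24% with upper-quartile scaling, and 52.05% and 49.94% with TMM. All changes below are relative to the TMM scale, and the small rises of Trim16 and Trim23 with LPS and of Trim39 with PSTO+LPS against PSTO changed sign with total reads. The 13 rises of at least 2-fold were called under every alternative run.

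The summed level of all 69 members was 4668 ± 297 CPM in PSTO+LPS, 5145 ± 107 CPM in LPS, 1869 ± 16.3 CPM in PSTO and 1781 ± 16.9 CPM in control (SD, n = 3). Trim25 and Trim30a together made up 51.8 to 54.4% of that sum in libraries with LPS and 19.5 to 23.2% in those without. Per kilobase of exon, the level of Trim30a was 168 ± 12.9 CPM in PSTO+LPS, 282 ± 12.5 CPM in LPS, 5.66 ± 0.712 CPM in PSTO and 9.48 ± 1.52 CPM in control. It was rank 1 of the tested members in LPS and rank 11 in control. Trim25 was at 303 ± 18.5 CPM per kilobase in PSTO+LPS, 282 ± 3.58 CPM in LPS, 69.9 ± 1.01 CPM in PSTO and 57.8 ± 3.07 CPM in control. Trim30a and Trim25 did not differ beyond their spread in LPS. Trim28, at 72.7 ± 2.39 CPM per kilobase, was rank 1 in control. It is followed there by Trim25, by Trim35 at 32.2 ± 0.92 CPM, and by Trim8 and Trim44 at 22.3 ± 1.18 and 21.7 ± 0.529 CPM per kilobase, whose spreads overlap.

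The chromosome 7 cluster holds 11 members among the 21 RefSeq genes that lie from Trim6 to Trim30e-ps1, and all 7 that could be tested were called higher with LPS, where 32.6% of all genes were for LPS against control and 29.8% for PSTO+LPS against PSTO. Of the 7, Trim30b, Trim30c and Trim30d could be tested only through their levels in the groups with LPS, so being higher there was part of how they came to be tested. These genes are the mouse relatives of TRIM5, an antiviral restriction factor of primates, and of its neighbours. Trim30a, whose protein is described in mouse as a brake on Toll-like receptor signalling that removes TAB2 and TAB3, had 630, 707 and 731 CPM in PSTO+LPS libraries, 1172, 1206 and 1104 CPM in LPS, 20.6, 22.8 and 26.4 CPM in PSTO, and 31.9, 41.2 and 43.8 CPM in control. No 2 groups overlapped: LPS libraries were highest and PSTO libraries lowest. Its log2 fold change was 4.90 (SE 0.14) for LPS against control and 4.89 (SE 0.14) for PSTO+LPS against PSTO, about 29.8-fold and 29.6-fold.

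The 3 other tested Trim30 genes were almost silent without LPS. Trim30d had 225, 282 and 362 reads in PSTO+LPS libraries, 881, 932 and 620 in LPS, 0, 0 and 1 in PSTO, and 7, 11 and 7 in control. The groups did not overlap, and LPS stood above PSTO+LPS. The rise from LPS against control was 7.04 on the log2 scale (SE 0.27), and the ratio of PSTO+LPS to PSTO, with 1 read in the PSTO group, was 1474 with a 95% counting interval of 264 to 58306. Trim30b had 137, 128 and 184 reads in PSTO+LPS libraries, 126, 109 and 117 in LPS, 0, 9 and 2 in PSTO, and 1, 0 and 0 in control. Every library with LPS was above every library without it. The ratio of LPS to control was 487 (86.9 to 19304), resting on 1 control read, and PSTO+LPS against PSTO gave a log2 fold change of 6.06 (SE 0.46). Trim30c had 418, 636 and 802 reads in PSTO+LPS, 1079, 1020 and 934 in LPS, 7, 0 and 13 in PSTO, and 5, 11 and 20 in control. The PSTO+LPS libraries were at 24.1, 48 and 47.8 CPM, so replicate 1 was apart from the others. Libraries with and without LPS were again apart, by 6.85 (SE 0.49) for LPS against control and 7.29 (SE 0.54) for PSTO+LPS against PSTO.

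Trim12c, described in mouse as a promoter of interferon and NF-kB signalling, had 235, 261 and 274 CPM in PSTO+LPS, 304, 312 and 283 CPM in LPS, 20.8, 20.6 and 24.5 CPM in PSTO, and 28.9, 33 and 32.6 CPM in control. The 4 groups were fully apart, in the order LPS, PSTO+LPS, control, PSTO. Trim34b had 33.8, 37.3 and 38.9 CPM in PSTO+LPS, 45.2, 44.5 and 41.3 CPM in LPS, 0.664, 0.602 and 1.13 CPM in PSTO, and 1.69, 1.76 and 2.71 CPM in control. It followed the same order without overlap. Trim34a had 24.7, 35 and 32.6 CPM in PSTO+LPS, 31, 32.5 and 31 CPM in LPS, 0.39, 1.09 and 0.603 CPM in PSTO, and 1.53, 1.76 and 1.16 CPM in control, so that PSTO+LPS and LPS overlapped. With LPS against control the log2 fold changes were 3.25 (SE 0.07) for Trim12c, 4.40 (SE 0.16) for Trim34b and 4.42 (SE 0.19) for Trim34a. Of the 50-base windows of their transcripts, 56.8% in Trim34b and 39.8% in Trim34a also occur in the other, and 33% of those of Trim12c occur in other genes, mostly Trim5. The handling of reads that fit more than 1 gene is not given, so the division of reads between these genes is uncertain; Trim5 itself had 21 reads and Trim12a had 6.

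**Figure D1:**
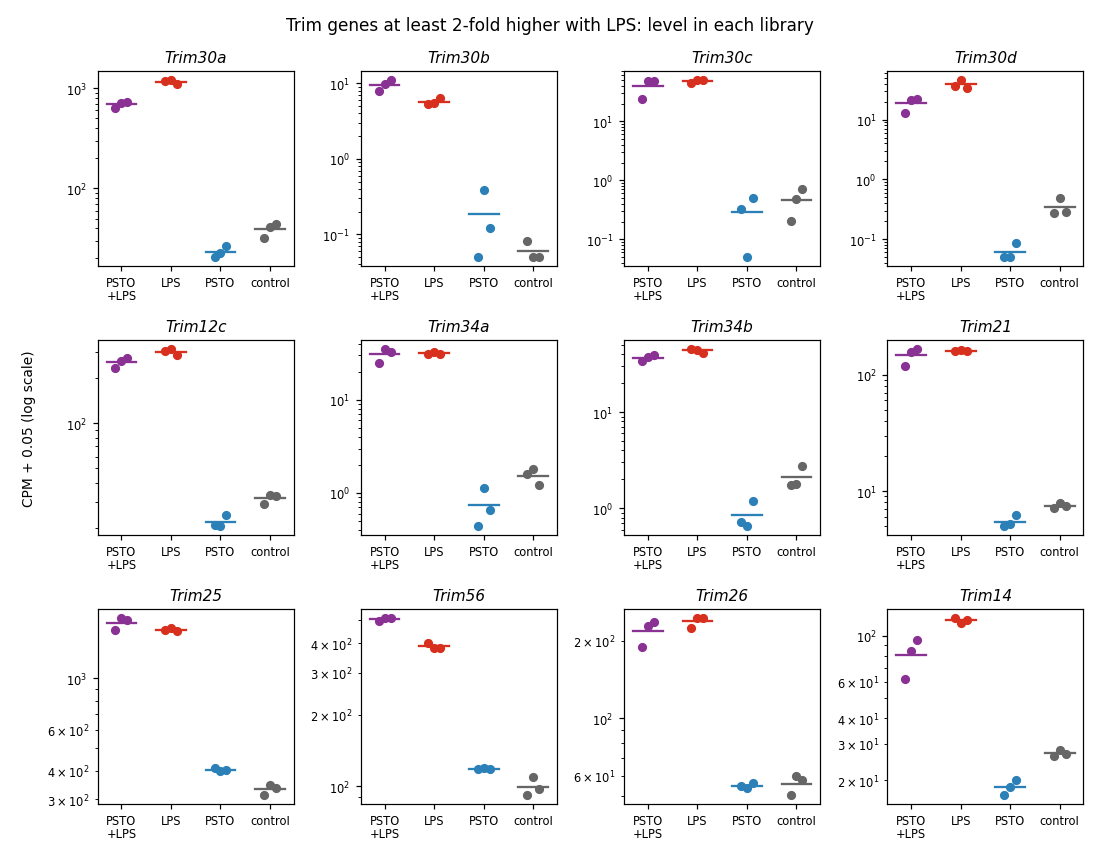
Level of 12 of the 13 Trim genes that were at least 2-fold higher with LPS, in each library (points; CPM + 0.05 on a log axis), with a line at each group mean (n = 3). In every panel the PSTO+LPS and LPS libraries lie above all PSTO and control libraries, and Trim30a and Trim30d are lower in PSTO+LPS than in LPS. The panels were picked by their rise with LPS, so the gap between libraries with and without it partly follows from that choice.

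The other 6 strong risers belong to the list of 17 members with known roles in innate immune sensing or signalling. Of its 14 tested members, 7 were higher and 6 lower with LPS against control, where 32.6% and 30.1% of all genes were. Trim21, a cytosolic receptor for antibody-coated pathogens, had 118, 157 and 166 CPM in PSTO+LPS, 159, 162 and 159 CPM in LPS, 4.96, 5.15 and 6.13 CPM in PSTO, and 7.12, 7.94 and 7.37 CPM in control. Libraries with LPS lay far above those without, and the LPS effect was 4.42 (SE 0.12) against control and 4.76 (SE 0.12) in the presence of PSTO. Trim25, whose protein acts with the RNA sensor RIG-I, had 1622, 1823 and 1785 CPM in PSTO+LPS, 1617, 1644 and 1603 CPM in LPS, 409, 397 and 401 CPM in PSTO, and 313, 348 and 336 CPM in control. It rose 4.88-fold with LPS against control and 4.33-fold with PSTO+LPS against PSTO. Trim56, which acts in STING and Toll-like receptor 3 signalling, had 498, 509 and 511 CPM in PSTO+LPS, 402, 384 and 384 CPM in LPS, 118, 119 and 119 CPM in PSTO, and 91.8, 109 and 97.3 CPM in control. PSTO+LPS was highest and control lowest, with no overlap between groups, and the LPS effect was 1.97 (SE 0.05) without and 2.09 (SE 0.05) with PSTO.

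Trim14, which lacks a RING domain and acts at the mitochondrial adaptor MAVS, had 61.6, 84.3 and 95.3 CPM in PSTO+LPS, 122, 116 and 120 CPM in LPS, 16.9, 18.5 and 20 CPM in PSTO, and 26.3, 28.1 and 26.8 CPM in control. No groups overlapped, and the rise was 4.4-fold for LPS against control. Trim26, a regulator of the factor IRF3, averaged 218 ± 25.6 CPM in PSTO+LPS, 238 ± 11.6 CPM in LPS, 54.7 ± 1.47 CPM in PSTO and 55.8 ± 4.83 CPM in control. It rose 4.27-fold with LPS against control, and its levels with and without PSTO overlapped. Trim13, a ubiquitin ligase anchored in the endoplasmic reticulum membrane, had 25.8, 20.4 and 19.5 CPM in PSTO+LPS, 39.4, 32.7 and 33 CPM in LPS, 4.64, 5.61 and 5.5 CPM in PSTO, and 5.97, 5.38 and 4.79 CPM in control. PSTO+LPS lay between LPS and the libraries without LPS, which overlapped each other. Its rise was 6.51-fold for LPS against control and 4.17-fold for PSTO+LPS against PSTO, and 14.2% of its windows also occur in the gene model Gm9359. Trim23, which carries an ARF domain, was 0.25 higher (log2, adjusted p = 0.0368) with LPS, a call lost on leaving out any control or PSTO library or LPS replicate 2 or 3 (adjusted p 0.0703 to 0.13).

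The largest fall among the members was that of Trim65, whose protein ubiquitinates the RNA sensor MDA5. It had 1.61, 1.28 and 1.19 CPM in PSTO+LPS, 0.921, 1.91 and 1.44 CPM in LPS, 32.7, 30.7 and 29.6 CPM in PSTO, and 19.1, 13.7 and 17.5 CPM in control. Libraries with LPS overlapped each other and lay below all others, and PSTO stood above control. Its log2 fold change was -3.57 (SE 0.20) for LPS against control and -4.49 (SE 0.20) for PSTO+LPS against PSTO. Trim47, another RING ligase, had 0.518, 1.74 and 0.954 CPM in PSTO+LPS, 1.13, 1.18 and 0.958 CPM in LPS, 6.75, 8.24 and 10.2 CPM in PSTO, and 7.65, 3.39 and 6.08 CPM in control. It showed the same split between libraries with and without LPS, with log2 fold changes of -2.39 (SE 0.33) and -3.02 (SE 0.35). Of their transcripts' 50-base windows, 6.58% in Trim47 and 3.05% in Trim65 occur in the other, and the assignment of such reads is not given.

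Trim59, a membrane-anchored member, had 15.4, 12.3 and 14.9 CPM in PSTO+LPS, 16.8, 13.8 and 17.9 CPM in LPS, 32.5, 32.3 and 32.7 CPM in PSTO, and 31.7, 36.2 and 33.6 CPM in control. The LPS level was 0.479 times that of control, and PSTO made no called difference. Trim37, a regulator of peroxisomes and centrioles, had 21.9, 21.6 and 24.4 CPM in PSTO+LPS, 22.4, 24.6 and 23.1 CPM in LPS, 38.2, 44 and 46.4 CPM in PSTO, and 51.7, 53 and 57.3 CPM in control. Control was highest, PSTO lower, and both groups with LPS lowest and overlapping. The log2 fold change was -1.21 (SE 0.09) for LPS against control and -0.92 (SE 0.09) for PSTO+LPS against PSTO. At low levels, Trim62 held 9, 5 and 15 reads in PSTO+LPS and 1, 5 and 17 in LPS, against 40, 69 and 46 in PSTO and 38, 33 and 38 in control, with log2 fold changes of -1.67 (SE 0.59) and -1.70 (SE 0.61). Trim2, a neuronal NHL-repeat member, had 0, 5 and 0 reads in PSTO+LPS, 5, 11 and 8 in LPS, 16, 9 and 37 in PSTO, and 54, 22 and 55 in control. Trim2 changed by -1.91 (SE 0.72) for LPS against control and by -2.73 (SE 0.91) for PSTO+LPS against PSTO. The Trim62 calls were lost without LPS replicate 1 or 2 (adjusted p 0.0918 and 0.0675), PSTO replicate 2 (0.0874) or PSTO+LPS replicate 2 (0.0641). Those of Trim2 were lost without control replicate 1 or 3 (0.0631 and 0.0745), LPS replicate 1 or 3 (0.0918 and 0.0503), PSTO replicate 3 (0.0885) or PSTO+LPS replicate 1 or 3 (0.0501 and 0.059).

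Of the 4 TIF1 nuclear corepressors, 3 were lower with LPS against control, where 30.1% of all genes were, and each by less than 2-fold. Trim28, which links KRAB zinc finger proteins to the histone methyltransferase SETDB1, averaged 245 ± 13.7 CPM in PSTO+LPS, 248 ± 3.24 CPM in LPS, 279 ± 2.85 CPM in PSTO and 302 ± 9.93 CPM in control. Its log2 fold change was -0.29 (SE 0.05) for LPS against control and -0.19 (SE 0.05) for PSTO+LPS against PSTO. Trim33 changed by -0.35 (SE 0.06) and -0.48 (SE 0.06) in these comparisons, and Trim24 by -0.66 (SE 0.15) and -0.40 (SE 0.15), the last with overlapping groups and lost without PSTO replicate 1 or 2 (adjusted p 0.136 each) or PSTO+LPS replicate 2 or 3 (0.0506 and 0.0547) and with limma-voom (0.0523). Trim66 averaged 0.902 ± 0.0639 CPM in PSTO+LPS, 1.23 ± 0.4 CPM in LPS, 0.544 ± 0.171 CPM in PSTO and 0.528 ± 0.193 CPM in control, and was not called for LPS against control (adjusted p = 0.0543). It was called higher there by DESeq2 (0.0252) and limma-voom (0.0271), with only these 2 groups fitted (0.0471), and without control replicate 1 (0.0443) or LPS replicate 2 (0.0376). Of 7 corepressor partners of TRIM28, 4 were lower and 1 higher with LPS against control, where 30.1% and 32.6% of all genes were, so that the share called was near that of all genes, 62.7%. Cbx3 and Cbx5, which encode heterochromatin proteins, fell by 1.86 and fell by 1.72 on the log2 scale in that order, and Mphosph8 fell by 0.44. Morc3 rose by 0.98.

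The remaining members called lower with LPS against control changed by -0.16 to -0.86 on the log2 scale. They are Trim3 at -0.70, Trim45 at -0.66, Trim68 at -0.81, Trim27 at -0.25, Trim41 at -0.16, Trim35 at -0.28, Trim39 at -0.24 and Trim46 at -0.86, the last with overlapping groups. The call of Trim39 was lost without LPS replicate 2 or 3 (adjusted p 0.0687 and 0.0733), that of Trim41 without control replicate 1 or LPS replicate 1 or 3 (0.0838, 0.0804 and 0.161), and that of Trim46 without control replicate 1 or LPS replicate 1 or 3 (0.0791, 0.146 and 0.104) or with only the 2 groups fitted (0.0537). Trim16 was 0.48 higher (log2). Trim8, Trim11, Trim32, Trim36, Trim44 and Trim66 were not called with LPS against control, at -0.15, -0.22, -0.04, 0.36, -0.10 and 1.21. With PSTO+LPS against PSTO, Trim8, Trim11, Trim32 and Trim44 were called lower, at -1.22, -0.43, -0.35 and -0.35. In that comparison the call of Trim46 was lost on leaving out any control, PSTO or PSTO+LPS library (adjusted p 0.0525 to 0.109), and that of Trim27 without PSTO replicate 2 (0.125). Leaving out any PSTO library made Trim8, Trim11 and Trim44 called lower with LPS against control as well, as did leaving out control replicate 2. Trim8 and Trim11 were also called without PSTO+LPS replicate 1, Trim11 without control replicate 3, and Trim44 without LPS replicate 1. Counting all alternatives, Trim8, Trim11 and Trim44 were called lower there under 9, 13 and 8. For each these included upper-quartile scaling, total reads and fitting only the 2 groups. Trim11 was also called by DESeq2 (adjusted p 0.0475) and by edgeR with RLE factors (0.0452). Trim36 and Trim66 were called in none of the 5 comparisons, though Trim36 was called lower with PSTO+LPS against PSTO without PSTO replicate 1 (adjusted p 0.0225) and with PSTO+LPS against LPS without LPS replicate 1 (0.033).

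**Figure D2:**
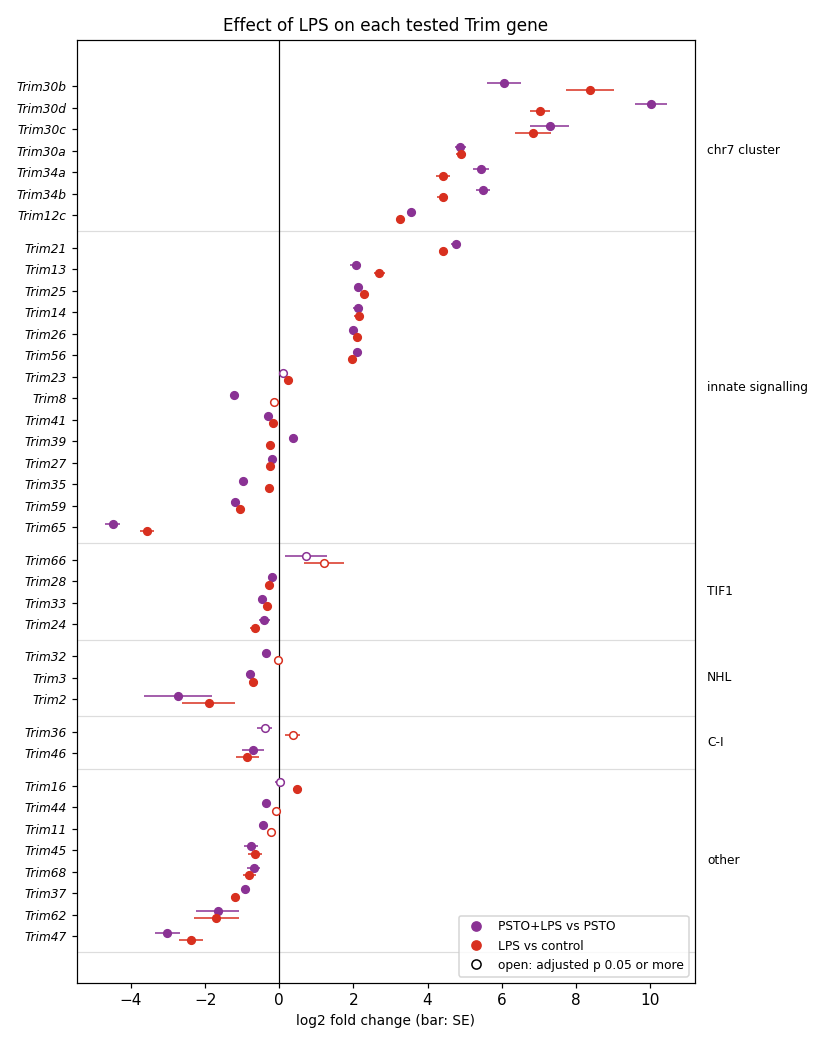
Log2 fold change of each of the 38 tested Trim genes for PSTO+LPS against PSTO and LPS against control, grouped by list, with bars of 1 SE; C-I is the microtubule-binding type. All 7 genes of the chromosome 7 cluster lie to the right of 0 in both comparisons, Trim65 and Trim47 lie farthest left in both, and open symbols were not called.

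The promoters add a description. An ISRE-type match lay in 6 of the 12 strong risers with a promoter in the table, in 1 of the 17 other tested members, in 2 of the 24 untested ones, and in 3.99% of all 27025 genes with a promoter of this length (3.44% of 32851 promoters). The 6 are Trim12c, Trim21, Trim26, Trim30a, Trim30d and Trim34a. Trim30a and Trim30d hold the same match in an identical run of 89 bases, so they are not separate instances. Trim30b, Trim30c and Trim30d, which are among the 12, could be tested only through their levels with LPS. The other tested member is Trim2, which fell. The untested ones are Trim5 and Trim12a, which had 21 and 6 reads although the promoter of Trim5 shares its match with Trim12c. The risers Trim13, Trim25, Trim30b, Trim30c, Trim34b and Trim56 had no match in this window. An NF-kB motif was found in 0 of the 12 risers, in 2 of the 17 other tested members (Trim28 and Trim46), in 2 of the 24 untested ones, and in 6.72% of all genes with such a promoter (5.89% of promoters). A match is not a binding site, and the absence of one says only that these letters are not in the window.

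PSTO alone changed fewer members than LPS did. Between PSTO and control, 16 of 38 members passed, 8 higher and 8 lower, where 30.9% of all genes passed, 15.0% higher and 15.9% lower. The members' median log2 fold change was 0.01, against -0.00016 for all genes. At least 2-fold, 2 members were higher, where 2.92% of all genes were, and 3 lower, where 1.98% were. In the chromosome 7 cluster 5 of the 7 tested members fell. Trim34b fell by 1.35 (SE 0.23), Trim34a by 1.07 (SE 0.28), Trim30a by 0.74 (SE 0.13) and Trim12c by 0.52 (SE 0.08) on the log2 scale, each without overlap between PSTO and control. The call of Trim34a was lost with limma-voom (adjusted p = 0.0901) and with only the 2 groups fitted (0.0717). Trim30d had 1 read in PSTO and 25 in control, a ratio of 0.0434 (95% counting interval 0.00106 to 0.265), and its call was lost with limma-voom (adjusted p = 0.1).

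The exception in direction was Trim30b, called higher at an adjusted p of 0.0347 with overlapping groups, on 11 reads in PSTO and 1 in control. Its ratio was 11.9 (1.74 to 514), and the adjusted p was 0.536 without PSTO replicate 2, which held 9 of the 11 reads, 0.103 and 0.125 without control replicates 2 and 3, and 0.321 with limma-voom. Outside the cluster Trim14 fell by 0.55 (SE 0.13), Trim37 by 0.33 (SE 0.08) and Trim21 by 0.46 (SE 0.14). The adjusted p of Trim21 was 0.0245, against 0.186 with limma-voom and 0.0669, 0.0757 and 0.0607 without control replicate 2, PSTO replicate 1 and PSTO replicate 2. With reads of Trim34a and Trim34b summed, which was added after the data were seen, the pair fell by 1.23 on the log2 scale (adjusted p = 2.56e-06).

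Apart from Trim30b, the largest rises with PSTO alone were those of Trim46 and Trim65. Trim46, which organises microtubules in axons, had 2.88, 2.94 and 3.28 CPM in PSTO+LPS, 0.796, 2.21 and 0.958 CPM in LPS, 4.72, 5.19 and 5.07 CPM in PSTO, and 2.84, 2.19 and 2.12 CPM in control. PSTO was highest, and the LPS and control groups overlapped. It rose 2.09-fold with PSTO against control and 2.31-fold with PSTO+LPS against LPS. Trim65 was 1.85-fold higher with PSTO against control. Trim39, a regulator of cell cycle and cell death proteins, had 48.8, 42 and 41.8 CPM in PSTO+LPS, 20, 19.1 and 18.9 CPM in LPS, 38.4, 33.6 and 31.3 CPM in PSTO, and 22.9, 23.3 and 22.6 CPM in control. All 6 libraries with PSTO lay above all 6 without it, with rises of 1.5-fold without LPS and 2.29-fold with LPS. Trim25, Trim56, Trim41 and Trim11 rose by 0.28, 0.26, 0.31 and 0.26 on the log2 scale with PSTO alone, and the call of Trim11 was lost on leaving out any control library or PSTO replicate 1 or 3 (adjusted p 0.0606 to 0.386).

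**Figure D3:**
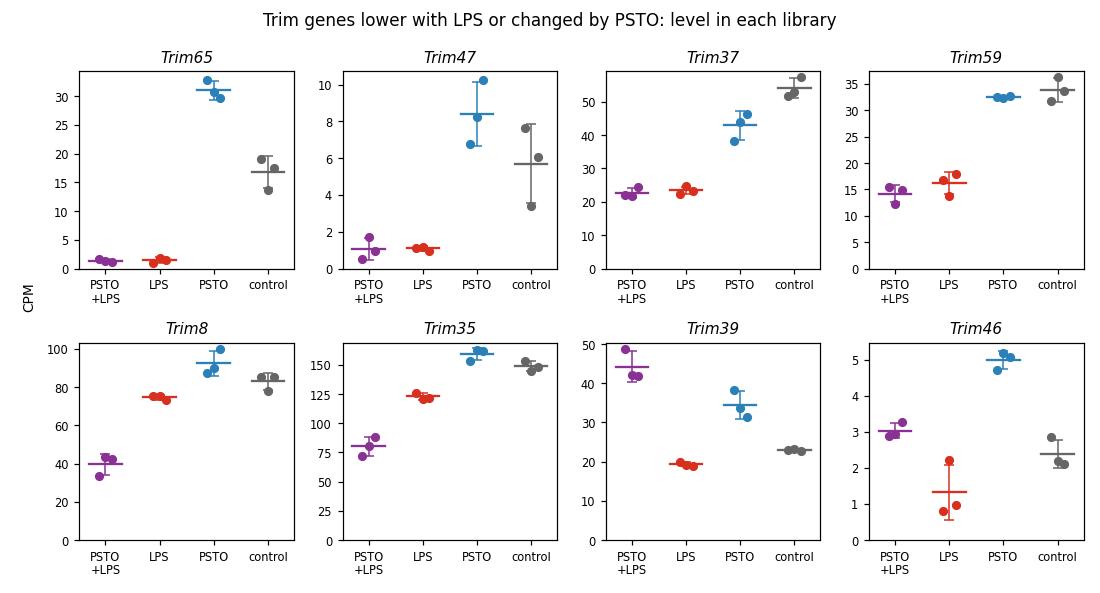
Level (CPM, linear axis) of 8 Trim genes that fell with LPS or changed with PSTO, in each library (points), with the group mean and SD (n = 3). Trim65 and Trim47 are near 0 in PSTO+LPS and LPS, Trim8 is lowest in PSTO+LPS, and Trim39 is highest in the groups that received PSTO.

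With LPS present, PSTO changed 13 of 38 members, 3 higher and 10 lower, where 38.4% of all genes passed, 16.7% higher and 21.7% lower. The members' median log2 fold change was -0.12, against -0.03 for all genes. At least 2-fold, 2 were higher and 1 lower, where 4.51% and 3.54% of all genes were. With RLE factors in place of TMM the split was 5 higher and 9 lower, and with DESeq2 it was 6 higher and 10 lower. Leaving out any control or PSTO library gave 6 higher and 8 or 9 lower. Doing so also moved the median of all genes by 0.038 (log2). The share of all called genes that were higher was then 49.6 to 49.77%, against 43.44% with all libraries. Comparing PSTO+LPS with LPS, Trim30a was 1.68-fold lower (log2 fold change -0.75, SE 0.12, adjusted p = 0.000661) and Trim30d 2.08-fold lower (-1.05, SE 0.17, adjusted p = 4.24e-05). Trim12c fell by 0.22 (SE 0.07) and Trim14 by 0.57 (SE 0.12). Trim34a and Trim34b were not called, at -0.04 (SE 0.15) and -0.25 (SE 0.13), nor was Trim30c at -0.28 (SE 0.30), although limma-voom called Trim34b lower (adjusted p = 0.0205). Trim30b was not called at 0.76 (SE 0.32), although its PSTO+LPS libraries all lay above its LPS libraries. DESeq2 gave an adjusted p of 0.00686, limma-voom 0.00527 and the 2 groups alone 0.00231, and leaving out any control or PSTO library gave 0.0174 to 0.0472.

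Trim8, which modulates cytokine and TAK1 signalling, had 33.3, 43.3 and 42.4 CPM in PSTO+LPS, 75.3, 75.4 and 73.1 CPM in LPS, 87.3, 89.9 and 99.9 CPM in PSTO, and 85.3, 77.9 and 85.5 CPM in control. Only PSTO+LPS stood well apart, below every other library. The log2 fold change was -0.92 (SE 0.08) for PSTO+LPS against LPS and 0.16 (SE 0.07, not called) for PSTO against control. Trim35, which binds the pyruvate kinase PKM2 and acts in RIG-I-like receptor signalling, had 71.8, 80.8 and 88.3 CPM in PSTO+LPS, 126, 121 and 122 CPM in LPS, 153, 162 and 162 CPM in PSTO, and 153, 145 and 148 CPM in control. It too was lowest in PSTO+LPS, by -0.62 (SE 0.06) against LPS, with no called change for PSTO against control at 0.10 (SE 0.06). Trim13 fell by 0.68 (SE 0.13), Trim16 by 0.36 (SE 0.13), Trim44 by 0.24 (SE 0.05) and Trim23 fell by 0.28 (SE 0.10). The call of Trim23 was lost under 14 alternatives, among them leaving out any control or PSTO library, LPS replicate 2 or 3 and PSTO+LPS replicate 1 or 3 (adjusted p 0.0722 to 0.128). That of Trim16 was lost without control replicate 1, LPS replicate 1 or 2, PSTO replicate 3 or PSTO+LPS replicate 2 (0.054 to 0.102). Trim56 was 1.3-fold and Trim46 and Trim39 were 2.31-fold and 2.29-fold higher. Trim25 was 0.10 higher (SE 0.04, adjusted p = 0.0603), with overlapping groups, and called higher under 14 alternatives, among them leaving out any control or PSTO library or PSTO+LPS replicate 1 (adjusted p 0.0039 to 0.0178). Trim41 was 0.17 higher (SE 0.07, adjusted p = 0.0544), without overlap between groups, and called higher under 13 alternatives. Among these were leaving out any control or PSTO library or PSTO+LPS replicate 1 (0.0211 to 0.0331).

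The PSTO effects with and without LPS rest on different libraries. In both, Trim12c, Trim14, Trim30a and Trim30d were called lower and Trim39, Trim46 and Trim56 higher; the 4 are 50% of the falls without LPS and 40% of those with it, and the 3 are 37.5% and 100% of the rises. Over all tested genes these shares were 59.4% and 43.3% for falls, and 54.9% and 49.4% for rises. The difference between the effects was itself tested as an interaction: the log2 change of PSTO+LPS over LPS, less that of PSTO over control. It was called in 8 of 38 members, 3 higher and 5 lower, where 17.4% of all genes were called, 7.00% higher and 10.4% lower. At least 2-fold, 2 members were higher and 1 lower, where 1.70% and 1.66% of genes were. With RLE factors the split was 5 higher and 4 lower.

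Of these 8, the interaction of Trim8 was -1.07 (SE 0.11, adjusted p = 9.59e-08) and that of Trim35 -0.71 (SE 0.09, adjusted p = 8.2e-07), both falling with PSTO when LPS was present. Trim39 was at 0.61 (SE 0.13, adjusted p = 0.00158), with a larger rise in the presence of LPS. These 3 were called under every alternative. Trim34b was at 1.09 (SE 0.27, adjusted p = 0.00449) and Trim34a at 1.04 (SE 0.32, adjusted p = 0.0265), both lower with PSTO alone and not called with LPS. With limma-voom both calls were lost (adjusted p 0.0732 and 0.179). Summed, the pair gave 1.07 (adjusted p = 0.000232). Trim13 was at -0.64 (SE 0.19), Trim65 at -0.92 (SE 0.31) and Trim44 at -0.25 (SE 0.08), with adjusted p-values of 0.0223, 0.0387 and 0.023. The calls of Trim13 and Trim65 were lost with limma-voom (0.0612 and 0.304), that of Trim65 with the replicate block (0.0509), and that of Trim44 with RLE, upper-quartile or no factors (0.0516 to 0.0589). Without single libraries the call of Trim34a was lost for control replicate 2, PSTO replicate 1 or 3 or PSTO+LPS replicate 2 (0.0547 to 0.082), and that of Trim13 for control replicate 2 or 3, LPS replicate 1, PSTO replicate 2 or 3 or PSTO+LPS replicate 3 (0.0568 to 0.109). That of Trim65 was lost without control replicate 2 or 3, LPS replicate 2 or 3, any PSTO library or PSTO+LPS replicate 2 or 3 (0.0687 to 0.207), and that of Trim44 without any control or PSTO library or LPS replicate 1 (0.0805 to 0.181). Trim12c and Trim30d narrowly missed, at 0.29 (SE 0.10, adjusted p = 0.0503) and 2.98 (SE 1.03, adjusted p = 0.0507), and were called under 11 and 10 alternatives. Without PSTO+LPS replicate 1, both were called, as were Trim21 (0.47, adjusted p = 0.00249) and Trim33 (-0.23, adjusted p = 0.0368). For Trim30a the interaction was -0.01 (SE 0.18, adjusted p = 0.987).

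**Figure D4:**
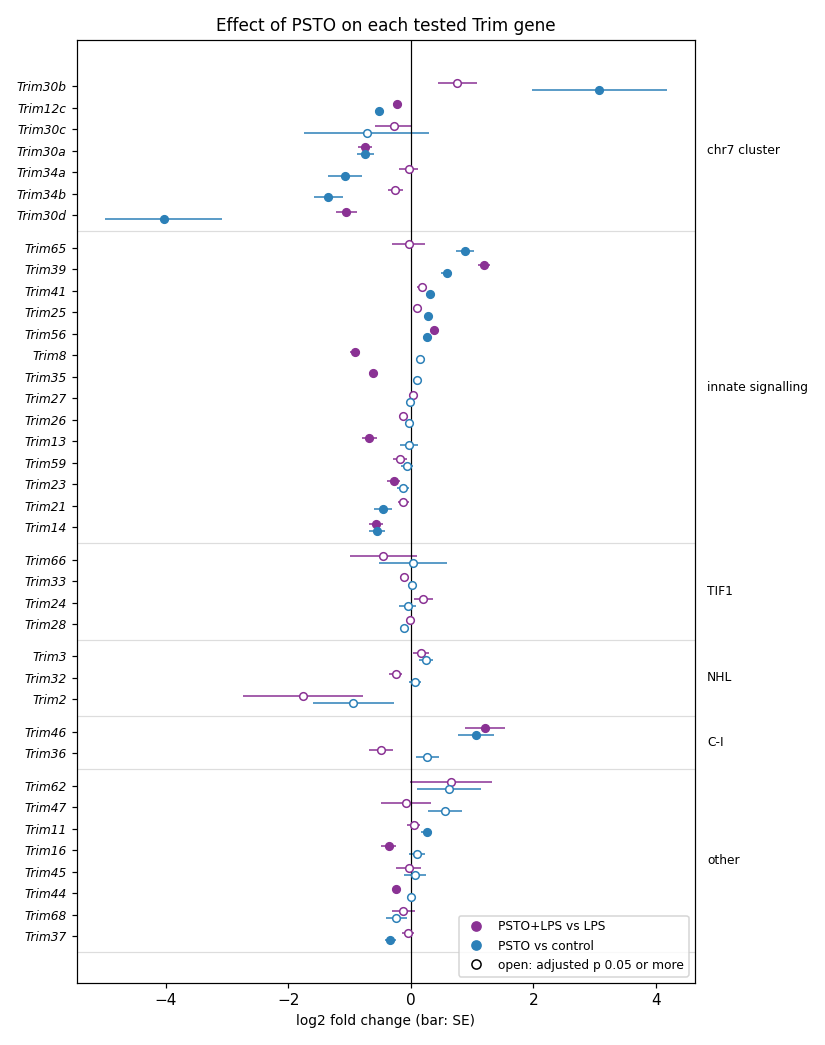
Log2 fold change of each of the 38 tested Trim genes for PSTO+LPS against LPS and PSTO against control, grouped by list, with bars of 1 SE; C-I is the microtubule-binding type. Trim30a lies at about the same place left of 0 in both comparisons, Trim8 and Trim35 are left of 0 only with LPS, and Trim39 and Trim46 are right of 0 in both.

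Genes that work with the family moved as follows. Of 5 family members listed under other names, 3 were tested and all rose with LPS against control, where 32.6% of all genes did. Pml, whose protein builds nuclear bodies, rose by 4.51 (SE 0.12), Mid1, a microtubule-bound ligase, by 2.95 (SE 0.21), and Mefv, the pyrin gene, by 2.75 (SE 0.29) on the log2 scale. Mid1 averaged 33.1 ± 2.84 CPM in PSTO+LPS, 7.75 ± 1.15 CPM in LPS, 5.03 ± 1.06 CPM in PSTO and 0.99 ± 0.232 CPM in control. PSTO raised Mid1 by 2.33 (SE 0.21) without LPS and by 2.10 (SE 0.16) with it, while Pml fell by 0.44 and by 0.47.

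Of the 15 RIG-I, STING and Toll-like receptor partners, 12 were higher and 2 lower with LPS against control, where 32.6% and 30.1% of all genes were. Ifih1, which encodes MDA5, rose by 6.56 (SE 0.17), Irf7 by 5.54 (SE 0.12) and Ddx58, which encodes RIG-I, by 5.30 (SE 0.22). With PSTO against control, 5 of the 15 rose and 4 fell, where 15.0% and 15.9% of all genes did. Ddx58 fell by 1.47 (SE 0.23) and Ifih1 fell by 1.15 (SE 0.17). Ifnb1, the interferon beta gene, had 640 reads in PSTO+LPS, 951 in LPS, 4 in PSTO and 0 in control. Of 13 genes of the ubiquitin and ISG15 pathways, 10 rose and none fell with LPS against control by edgeR. Of all genes, 32.6% rose and 30.1% fell. In this list of 13, 11 were at an unadjusted p under 0.05. Isg15 rose by 7.46 (SE 0.24), Usp18 by 6.24 (SE 0.22) and Herc6 by 6.17 (SE 0.20).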

How the data were processed

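The deposited table holds whole-number read counts per gene for 12 libraries, and the authors applied no normalization to them, which was checked on the values. HISAT, DESeq2 and mouse build mm39 are named per the submitters' processing notes. Which read counter and strand setting were used, and how reads that fit several genes were handled, is not given in the sources used here. Per the labels' protocols, a Qiagen kit was used to extract total RNA.

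The analysis used R 4.3.3 and edgeR 4.0.16 (robust quasi-likelihood fit, 1 mean per group over all 12 libraries, TMM factors, filterByExpr with its minimum count of 10). P-values were Benjamini-Hochberg adjusted over all 14505 tested genes and called under 0.05, in every comparison. Tested genes took 99.91% of reads or more in each library. SE, the standard error, is the log2 fold change over the root of F, and CPM are TMM-scaled. Alternatives used limma 3.58.1 (voom), DESeq2 1.42.0, other factors and filters, and left out single libraries. The procedure was run on simulated counts in which LPS raised or lowered a small share of genes in equal numbers. These counts held no PSTO effect and no interaction. The run therefore could not test the scaling when most genes change, nor the finding of an interaction. Libraries of 1 group correlated at 0.988 to 0.9933 (Spearman, across genes) and no library was duplicated. By chi-square per degree of freedom, PSTO+LPS replicate 1 differed from replicates 2 and 3 by 11.4 and 12.9. Replicates 2 and 3 differed from each other by 4.09, and no other pair within a group exceeded 9.29. Where a group held 1 read, its ratio is given with an exact 95% binomial (counting) interval.

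The members and lists were chosen with earlier results of these data known. Members were named where called with at least a 2-fold change and a mean of 1 CPM or more in the higher group, plus a panel (Trim30a, Trim21, Trim25, Trim14, Trim56, Trim38, Trim27, Trim13, Trim8, Trim24, Trim28 and Trim33), with list genes by size of change and the rest by count or value. Lengths and 50-base windows come from GENCODE M21 transcripts and gene order from RefSeq, both of an older build than the counts. Ddx58, Tmem173 and Mb21d1 were matched through older symbols. Of the interferon signalling list, results other than the reads of Ifnb1 are not reported here.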

Additional observations from a re-analysis of the deposited data

Results flagged for a closer look

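In 8 members the effect of PSTO differed between cells with and without LPS, by the test of the interaction, in which 17.4% of all tested genes were called. The values are log2 differences, PSTO+LPS over LPS less PSTO over control, called by edgeR's quasi-likelihood test. Trim8 stood at -1.0714, from -0.92 with LPS and 0.16 without. Trim35 stood at -0.7112, from -0.62 with LPS and 0.10 without. Trim39 stood at 0.6074, from 1.19 with LPS and 0.59 without. Trim34a stood at 1.0358 and Trim34b at 1.0913, from -0.04 and -0.25 with LPS and -1.07 and -1.35 without, and these genes share transcript sequence. Trim65 stood at -0.9213, from -0.04 with LPS and 0.89 without. Trim13 stood at -0.6408, from -0.68 with LPS and -0.04 without. Trim44 stood at -0.2472, from -0.24 with LPS and 0.01 without.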

How the results depend on the processing

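Of 190 results for single members, 136 kept their side of the threshold under all alternatives run, and those called kept their direction. Direction was not compared for results that were not called. Members called numbered 4 for the interaction with limma-voom, against 8 with edgeR. Leaving out 1 library at a time gave 5 to 12 members called for the interaction, 27 to 34 for LPS against control, 30 to 34 for PSTO+LPS against PSTO, 14 to 18 for PSTO against control and 11 to 15 for PSTO+LPS against LPS. The interaction count moved by more than 1.5 times without control replicate 2 or 3 or PSTO replicate 2 (5 each), and its 12 came without PSTO+LPS replicate 1. With total reads and no factors, some results called under either scaling changed sign. These were Trim16 (-0.0437) and Trim23 (-0.28) for LPS against control. For PSTO+LPS against PSTO they were Trim16 (-0.47), Trim23 (-0.39) and Trim39 (-0.12). By construction this scaling moves all genes alike within a library.

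With the replicate block 32, 33, 16, 13 and 9 members were called in the order LPS against control, PSTO+LPS against PSTO, PSTO against control, PSTO+LPS against LPS and interaction. Same-numbered libraries of different groups correlated at -0.031 to 0.051 in their deviations from the group means over 18 pairs. No strong effect shared by number was thus seen across genes. Whether same-numbered libraries shared a culture, day or batch is not given, and these correlations cannot settle it. Depth limits Trim2, Trim30b, Trim30d, Trim62 and Trim66, and the 31 untested members cannot be judged.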
